A study of Anguilla japonica with 6 samples.

Results

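Genes of the mitochondrial ribosome, of mitochondrial translation elongation and of the mitochondrial protein import channels were followed in the pituitary gland of female Japanese eels (Anguilla japonica). Members were chosen by symbol: genes named mrpl, mrps, timm or tomm followed by a number, together with tufm, tsfm, gfm1 and gfm2. The pattern matched 98 of 32359 genes: 75 with ribosomal protein symbols, 4 grouped here as elongation factors and 19 with import symbols. Of these 4, gfm2 is grouped by symbol, and its product acts in ribosome recycling. Of the 32359 genes, 16895 carry only a LOC identifier and 1289 only a Novelgene identifier, and any further genes of these systems among them were not analysed here. Pituitaries of matured females gave 3 libraries and pituitaries of pre-matured females gave 3 libraries. The labels do not say how maturation came about, so a hormone treatment, if there was any, cannot be told apart from maturation. Nor do they tie each library to an animal of its own: p-values here measure the spread between these samples, which may be technical.

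Mitochondria carry their own ribosome, which translates the few messenger RNAs of the mitochondrial genome into subunits of the respiratory chain. All of the ribosome's own proteins are encoded in the nucleus and made in the cytosol, as are most other mitochondrial proteins, and reach the organelle through the TOM complex of the outer membrane and the TIM23 and TIM22 complexes of the inner membrane. Part of the ribosomal proteins have counterparts in bacterial ribosomes, and the others are found only in mitochondrial ribosomes. Roles given below for single proteins are known from human or yeast mitochondria and were not measured here.

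The values are FPKM, which divide the reads of a gene by its length and by the reads of the library, so levels of different genes can be set side by side. Whole reads rebuilt from the values gave depths of 16033675 to 19619964 reads in matured libraries and 18206029 to 19276653 reads in pre-matured libraries. A tested member held between 14 and 1721 reads in a library, with a median of 213.5, and 31 of 97 tested members held fewer than 100 reads in at least 1 library. Levels of the hormone genes lhb (11.21 ± 1.13 on the log2 scale) and gh1 (3.05 ± 0.50) were higher in matured pituitaries (log2 fold change ± SE, limma adjusted p = 0.00128 and 0.00479), and summed hormone genes took 3.42% to 8.27% of the FPKM total in matured libraries against 0.447% to 0.506% in pre-matured ones. Of 14 hormone symbols listed, 7 were measured and 5 were tested, of which lhb and gh1 passed. Fshb, smtlb and pomca did not pass (limma adjusted p = 0.778, 0.082 and 0.497), and tshba and prl were not tested. Among the matured libraries, matured 2 had the lowest lhb (5835 FPKM) and gh1 (9484 FPKM) and the highest fshb (514 FPKM). Prl, which marks lactotrophs, was at 0.044 FPKM in matured 1 and listed at 0 in the other libraries. Hormone genes that carry only a LOC identifier were not looked for, so this value does not show that lactotrophs were missing. Summed FPKM of markers of other cell types overlapped between the groups: matured and pre-matured libraries held 30.9 to 40.8 and 33.1 to 98.3 FPKM of 3 erythrocyte genes, 76.8 to 90.5 and 48.1 to 85.7 FPKM of 9 endothelial genes, 586 to 718 and 537 to 1004 FPKM of 8 leukocyte genes, 73.3 to 139 and 48.7 to 82.3 FPKM of 8 fibroblast genes, 165 to 325 and 108 to 277 FPKM of 11 neuronal and glial genes, and 7.33 to 10.5 and 9.23 to 10.8 FPKM of 7 proliferation genes. As a percent of the FPKM total, 2 of these lists did not overlap: endothelial genes held 0.0151% to 0.0166% in matured and 0.00694% to 0.0138% in pre-matured libraries, and fibroblast genes held 0.0134% to 0.0266% in matured and 0.00683% to 0.0133% in pre-matured libraries. Of the 9 endothelial genes, 6 had a positive and 3 a negative log2 fold change, with a median of 0.09. Plvapb was the only endothelial gene that passed, with means of 27.8 FPKM in matured and 2.99 FPKM in pre-matured pituitaries. The endothelial share without plvapb was not calculated, so the list as a whole is not shown to be higher. All 6 tested fibroblast genes had a positive log2 fold change, and 1 of them passed. None of these marker genes was at 0 in all 6 libraries. Single genes of these lists passed the test. Plvapb, pdgfra, nefma, aldh1l1, csf1ra and rhag were higher and alas2 was lower, so the erythrocyte list held calls in both directions. The part of these genes in the results below was not tested. In bulk tissue, fewer cells of a type and less RNA per cell cannot be told apart.

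Members of the 3 systems went both ways in matured pituitaries, and more of them were lower than higher in FPKM as deposited, a balance that turned round with TPM, with library totals that leave out genes above 1% and without the length trend. Of 97 members tested, 19 were lower and 7 were higher (limma on log2(FPKM + 1), Benjamini-Hochberg adjusted p under 0.05 over 17887 genes), and 71 did not pass. Of all 17887 genes, 33.4% were called in either direction. Among all 17887 genes the balance was the other way, with 10% lower and 23.4% higher, while the members stood at 19.6% lower and 7.22% higher. The median log2 fold change was -0.25 over the members and 0.23 over all genes tested. All 26 called members had groups that did not overlap. With 3 libraries a group the call itself favours such genes, so this count adds no support of its own. The matching share among all called genes was not calculated. Over the tested members, matured and pre-matured libraries were separated without overlap for 38 lower and 12 higher ones, where all genes had 15.9% lower and 33.3% higher. The remaining member, timm21, was at 0.0352 FPKM in matured 2 and is listed at 0 in the other libraries, so it was not tested.

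**Figure D1:**
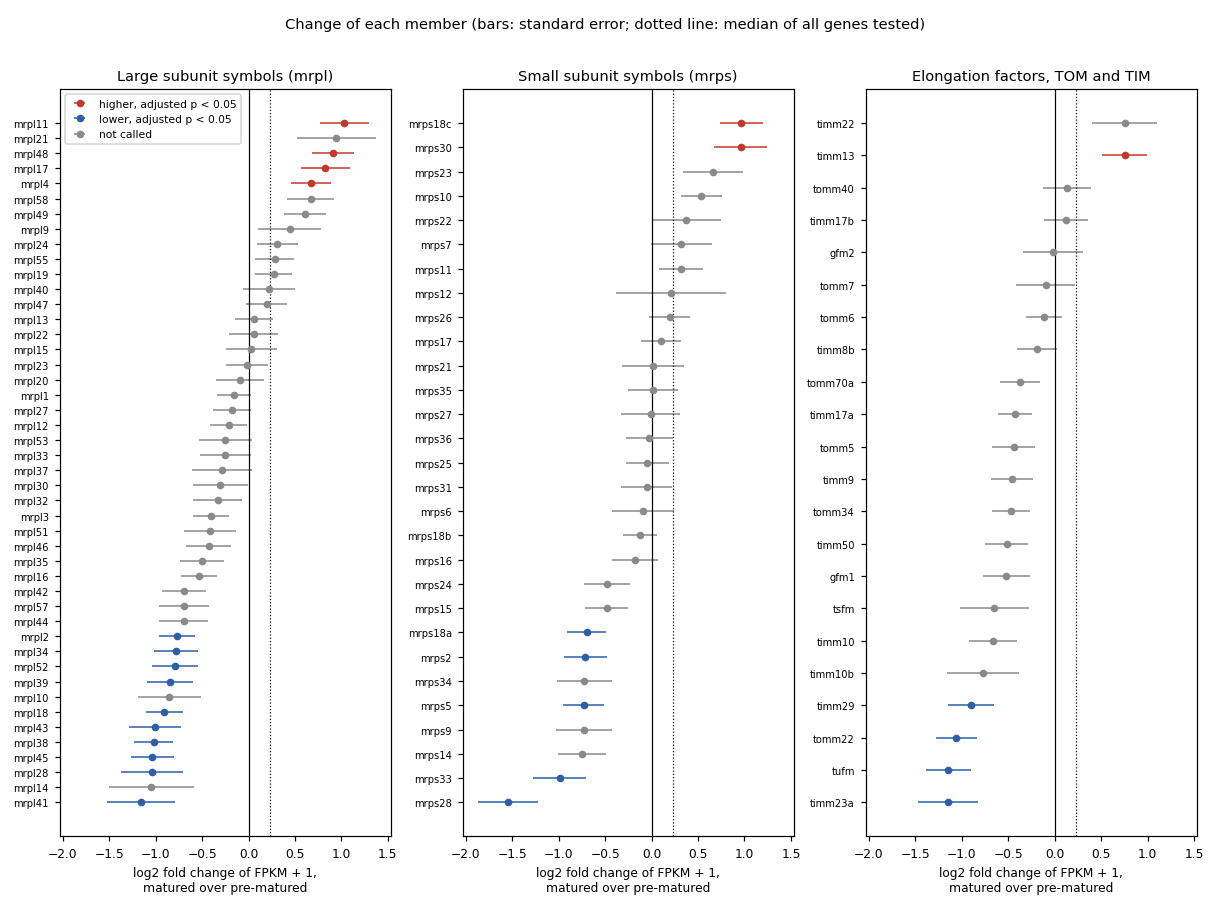
Log2 fold change of FPKM + 1 (matured over pre-matured, horizontal axis) of each of the 97 tested members, with bars for the standard error, in panels for mrpl symbols, mrps symbols, and elongation factors with TOM and TIM genes. Red points are the 7 higher and blue points the 19 lower members, and the dotted line marks the median of all genes tested at 0.23.

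Both the size of these counts and which direction had more members depended on how libraries were scaled to each other. Pre-matured libraries had FPKM totals of 620732 to 713023 against 500088 to 545149 in matured ones. Summed FPKM of the 98 members was 1091, 1282 and 1298 in matured libraries and 1526, 1489 and 1495 in pre-matured libraries, without overlap. As a share of the FPKM total, the members held 0.208%, 0.256% and 0.238% in matured and 0.214%, 0.240% and 0.233% in pre-matured libraries, which overlap. After rescaling to TPM, 4 members were lower and 10 higher (all genes 5.47% and 32.5%), and library totals that leave out genes above 1% gave 6 and 12 (all genes 5.82% and 34.7%). Quantile normalization gave 37 lower and 3 higher members (all genes 16.2% and 16.3%), and median-ratio scaling gave 34 and 2 (all genes 15.2% and 18%). Voom on rebuilt reads called 9 lower and 3 higher (all genes 8.79% and 22.2%), and with median-ratio library sizes 25 and 0 (all genes 14.3% and 16.4%). The share of members called higher was below that of all genes under each of the 8 treatments in the plot of called shares. The share called lower was above that of all genes with FPKM as deposited, quantile normalization, and median-ratio scaling or library sizes. It was near that of all genes with totals that leave out genes above 1%, with voom on rebuilt reads and without the length trend. With TPM it was below. The members' median log2 fold change was 0.06 with TPM and with those library totals, and negative in the other settings, while its distance from the all-gene median lay between -0.58 and -0.28 in all 8. Removal of a trend with gene length, which left 10 lower and 11 higher members (all genes 9.19% and 23.8%), gave the value of -0.28. The tested members were short genes, with a median length of 1266 bases against 2751 over all genes. All 26 called members kept their sign under every scaling, filter, pseudocount and left-out library tried. The calls of tufm, tomm22, mrps28 and mrpl38 were kept under every scaling, without the length trend and without any 1 library, and 20 of the 26 calls were lost without at least 1 library. Of the 7 higher calls, 0 were kept under every scaling, and all 7 were kept without the length trend, as were 9 of the 19 lower ones.

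**Figure D2:**
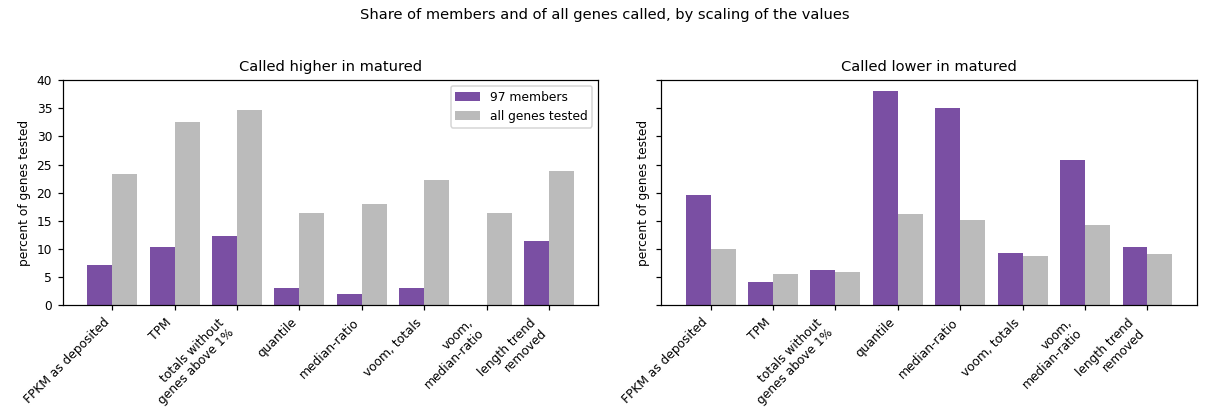
Percent of the tested members (purple) and of all genes tested (grey) called higher (left) and lower (right) in matured pituitaries, under 8 treatments of the values. With FPKM as deposited the members stood at 7.22% higher and 19.6% lower, beside 23.4% and 10% of all genes.

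Among the elongation factors, the gene of the most abundant factor in pre-matured pituitaries fell. Tufm encodes mitochondrial EF-Tu, which brings aminoacyl-tRNA to the ribosome. Its level was 5.82, 5.25 and 5.92 FPKM in the matured libraries, with 154, 170 and 159 reads, and at 12.5, 18.3 and 11.2 FPKM in the pre-matured libraries, with 397, 563 and 337 reads. All matured libraries lay below all pre-matured ones, and pre-matured 2 was the highest. The mean of 5.66 ± 0.36 FPKM in matured pituitaries was 0.404 times the 14.0 ± 3.8 FPKM of pre-matured ones (SD, n = 3 each; log2 fold change -1.14 ± 0.24 SE, limma adjusted p = 0.00852). Without any 1 library the limma adjusted p lay between 0.0129 and 0.0305.

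The other genes grouped as elongation factors did not pass. Tsfm, which encodes the nucleotide exchange factor of EF-Tu, was at 0.598, 1.49 and 1.30 FPKM in the matured libraries and 1.41, 4.53 and 1.66 FPKM in the pre-matured libraries, with as few as 19 reads in matured 1 (limma adjusted p = 0.206). Pre-matured 2 was the highest library for tsfm as for tufm, and the groups overlapped. Gfm1, the translocation factor gene, was at 1.25, 1.13 and 1.55 FPKM in the matured libraries and 2.66, 2.59 and 1.74 FPKM in the pre-matured libraries, without overlap (log2 fold change -0.52 ± 0.25 SE, limma adjusted p = 0.144). Gfm2, whose product acts in ribosome recycling, was at 9.10, 7.67 and 7.44 FPKM in the matured libraries and 4.95, 13.2 and 8.07 FPKM in the pre-matured libraries, and its pre-matured values enclosed the matured ones (limma adjusted p = 0.972).

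Of the 46 large subunit (mrpl) genes, 10 fell and 4 rose in matured pituitaries, and 32 did not pass (21.7% lower and 8.70% higher, beside 10% and 23.4% of all genes). Shares by subunit, counterpart and complex, here and below, are for FPKM as deposited only. With TPM, 2 of the 75 genes with ribosomal protein symbols were lower and 9 higher. The median log2 fold change that follows is of the mrpl genes. Their median log2 fold change was -0.27, and levels between genes ranged widely, with mrpl9 at a mean of 1.25 FPKM over all libraries and mrpl45 at 47.9 FPKM. The 4 lower genes with the smallest p were mrpl38, mrpl18, mrpl45 and mrpl2. Mrpl38, a subunit with no bacterial counterpart, was at 7.84, 6.01 and 8.41 FPKM in the matured libraries and 16.2, 16.4 and 15.4 FPKM in the pre-matured libraries. The pre-matured libraries were nearly equal and all above the matured ones (7.42 ± 1.25 FPKM in matured and 16.0 ± 0.57 FPKM in pre-matured pituitaries, SD, n = 3 each; log2 fold change -1.02 ± 0.21 SE, limma adjusted p = 0.00753). Mrpl18, which has a bacterial counterpart, was at 15.4, 17.7 and 17.5 FPKM in the matured libraries and 38.2, 32.4 and 27.7 FPKM in the pre-matured libraries (log2 fold change -0.91 ± 0.20 SE, limma adjusted p = 0.01). Its groups did not overlap, and the call was lost after rescaling to TPM (limma adjusted p = 0.0567).

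Mrpl45, the most abundant mrpl gene measured, encodes a protein near the exit of the peptide tunnel that anchors the human ribosome to the inner membrane. It was at 29.7, 30.3 and 31.5 FPKM in the matured libraries and 45.8, 76.5 and 73.7 FPKM in the pre-matured libraries. The matured libraries were nearly equal, and pre-matured 1 was the lowest of its group (log2 fold change -1.04 ± 0.23 SE, limma adjusted p = 0.0109, and 0.0626 after rescaling to TPM). Mrpl2, the counterpart of a bacterial protein close to the peptidyl transferase centre, was at 7.32, 8.56 and 8.67 FPKM in the matured libraries and 13.7, 14.5 and 15.6 FPKM in the pre-matured libraries. The groups did not overlap (log2 fold change -0.77 ± 0.20 SE, limma adjusted p = 0.0180), and the call was lost without matured 1 (limma adjusted p = 0.0733) and with TPM (limma adjusted p = 0.143).

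The 6 further lower genes were mrpl41, mrpl28, mrpl43, mrpl39, mrpl52 and mrpl34, with log2 fold changes of -1.16, -1.04, -1.01, -0.85, -0.80 and -0.78 and limma adjusted p between 0.0254 and 0.0410. Mrpl41 and mrpl28, the furthest down of these 6, were picked out after their values were seen. Mrpl41 was at 10.2, 14.2 and 14.6 FPKM in the matured libraries and at 54.9, 25.4 and 19.2 FPKM in the pre-matured ones, and pre-matured 1 stood far above the other pre-matured libraries. Mrpl28 was at 3.24, 9.32 and 4.92 FPKM in the matured libraries and 10.2, 13.5 and 12.9 FPKM in the pre-matured libraries, with matured 2 close to the pre-matured range. The call of mrpl52 was lost without any 1 of the 6 libraries (limma adjusted p = 0.0502 to 0.134), that of mrpl41 without any except pre-matured 3 (0.0592 to 0.123) and that of mrpl28 without any except matured 2 (0.0603 to 0.131). Mrpl34 and mrpl39 both lost it without matured 2, matured 3, pre-matured 1 or pre-matured 3 (limma adjusted p = 0.0738 to 0.109 and 0.0600 to 0.108), and mrpl43 without matured 1 or pre-matured 2 (limma adjusted p = 0.0885 and 0.0687).

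The 4 higher genes were mrpl48, mrpl11, mrpl17 and mrpl4. Mrpl48, a subunit of the human central protuberance, was at 25.7, 22.5 and 25.1 FPKM in the matured libraries and 11.2, 10.4 and 16.7 FPKM in the pre-matured libraries. The means of 24.4 ± 1.67 FPKM in matured and 12.8 ± 3.45 FPKM in pre-matured pituitaries differed 1.91-fold (SD, n = 3 each; log2 fold change 0.91 ± 0.23 SE, limma adjusted p = 0.0164). Mrpl11, the counterpart of a bacterial protein at the base of the stalk where elongation factors bind, was at 7.77, 10.9 and 6.85 FPKM in the matured libraries and 2.86, 3.48 and 4.54 FPKM in the pre-matured libraries, with 46, 54 and 69 reads in the pre-matured ones. It had the largest rise of the called members (log2 fold change 1.03 ± 0.26 SE, limma adjusted p = 0.0179). Mrpl17 was at 24.9, 30.9 and 29.0 FPKM in the matured libraries and 10.9, 15.3 and 21.9 FPKM in the pre-matured libraries, where pre-matured 3 came close to the matured range (log2 fold change 0.83 ± 0.26 SE, limma adjusted p = 0.0400). Mrpl4, whose bacterial counterpart lines the peptide tunnel, was at 11.8, 12.4 and 9.30 FPKM in the matured libraries and 5.86, 6.62 and 7.27 FPKM in the pre-matured libraries, without overlap (log2 fold change 0.68 ± 0.22 SE, limma adjusted p = 0.0416). The call of mrpl48 was lost without matured 1 or matured 3 (limma adjusted p = 0.0606 and 0.0540), and that of mrpl11 without matured 1 or matured 2 (0.0525 and 0.0689). That of mrpl17 was lost without any library except pre-matured 3 (0.0729 to 0.111) and that of mrpl4 without any 1 of the 6 (0.0541 to 0.133). With voom on rebuilt reads and median-ratio library sizes 0 of the 4 passed (adjusted p = 0.0666 to 0.174), with the same sign.

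Mrpl30, second in level among mrpl genes, did not pass: it was at 23.0, 38.1 and 21.8 FPKM in the matured libraries and 24.2, 45.1 and 33.5 FPKM in the pre-matured libraries, with overlap (limma adjusted p = 0.457). Within the large subunit, genes with a bacterial counterpart and genes without were found in both directions. Over both subunits, 8 of 47 genes with a bacterial counterpart fell and 4 rose (17.0% lower and 8.51% higher). Of 27 without a counterpart 7 fell and 2 rose (25.9% lower and 7.41% higher), beside 10% and 23.4% of all genes. This split was added after seeing the data. The difference between these shares was not tested.

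**Figure D3:**
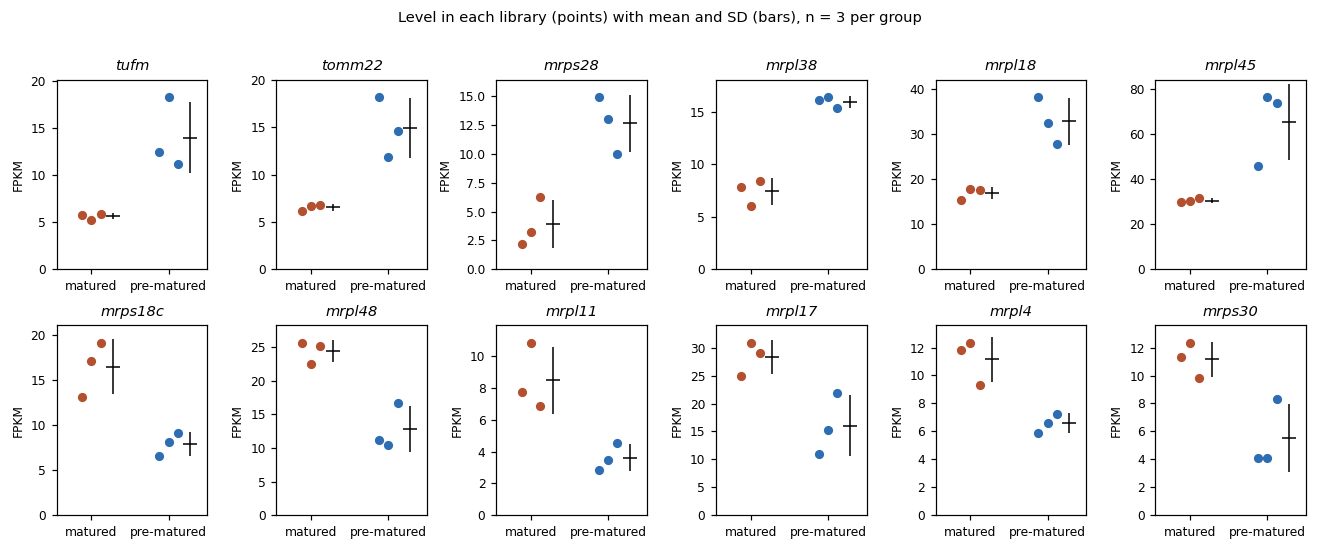
FPKM in each matured (left, rust) and pre-matured (right, blue) library for 12 members, with mean and SD as black bars (n = 3 per group) and the vertical axis starting at 0. The upper row holds 6 members called lower and the lower row 6 called higher. The groups do not overlap in any panel, as in all 26 called members.

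Of the 29 genes with small subunit symbols (mrps), 5 fell, 2 rose and 22 did not pass (17.2% lower and 6.90% higher, beside 10% and 23.4% of all genes), with a median log2 fold change of -0.05. By place in human ribosomes, 4 of 26 small subunit genes fell and 1 rose (15.4% lower and 3.85% higher). Of 48 large subunit genes placed this way, 11 fell and 5 rose (22.9% lower and 10.4% higher). Mrps28, whose human protein has a bacterial counterpart in the small subunit, had the largest fall of all 97 tested members. It was at 2.23, 3.22 and 6.23 FPKM in matured libraries, with 30, 53 and 85 reads, and at 14.96, 13.0 and 10.02 FPKM in the pre-matured libraries, with 242, 203 and 153 reads. Matured 1 was the lowest library, and the mean in matured pituitaries was 0.307 times that in pre-matured ones (log2 fold change -1.55 ± 0.33 SE, limma adjusted p = 0.00875). Mrps33, a subunit with no bacterial counterpart, was at 2.93, 4.05 and 3.86 FPKM in the matured libraries and 9.29, 10.5 and 5.35 FPKM in the pre-matured libraries, with pre-matured 3 nearest to the matured ones (log2 fold change -0.99 ± 0.29 SE, limma adjusted p = 0.0290). Mrps5, which has a bacterial counterpart, was at 3.64, 3.48 and 3.94 FPKM in the matured libraries and 6.84, 7.73 and 5.87 FPKM in the pre-matured libraries, without overlap (log2 fold change -0.73 ± 0.22 SE, limma adjusted p = 0.0354). Both calls were lost without any 1 library except pre-matured 3 (limma adjusted p = 0.0571 to 0.1 for mrps33 and 0.0600 to 0.104 for mrps5). Mrps2 fell with a log2 fold change of -0.71 (limma adjusted p = 0.0431), and its call was lost without any library except pre-matured 2 (0.0755 to 0.137).

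Mrps30 rose, and its product belongs to the large subunit in human ribosomes in spite of its name. It was at 11.3, 12.4 and 9.84 FPKM in the matured libraries and 4.11, 4.08 and 8.32 FPKM in the pre-matured libraries. Pre-matured 3 was the one nearest to the matured libraries, and the call was lost without any library except pre-matured 3 (log2 fold change 0.96 ± 0.29 SE, limma adjusted p = 0.0323 with all libraries and 0.0633 to 0.0957 without 1). The abundant genes mrps14 and mrps6 did not pass. Mrps14 was at 23.0, 22.7 and 31.1 FPKM in the matured libraries and 59.8, 41.6 and 32.5 FPKM in the pre-matured libraries, just without overlap (log2 fold change -0.75 ± 0.26 SE, limma adjusted p = 0.0543). Mrps6 was at 16.7, 23.6 and 36.0 FPKM in the matured libraries and 30.7, 33.3 and 17.1 FPKM in the pre-matured libraries, with wide overlap (limma adjusted p = 0.850). Mrps36, a small subunit by symbol whose human product was later placed in a dehydrogenase complex, was at 5.96, 6.24 and 9.13 FPKM in the matured libraries and 5.49, 8.32 and 7.85 FPKM in the pre-matured libraries, also with overlap; it was named after its values were seen.

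Mrps18a, mrps18b and mrps18c descend from the same bacterial protein, and the 3 genes had different patterns. In human ribosomes the mrps18a protein sits in the large subunit, and those of mrps18b and mrps18c sit in the small subunit. Mrps18a fell, with 9.46, 10.9 and 13.2 FPKM in the matured libraries and 16.7, 18.4 and 20.8 FPKM in the pre-matured libraries (log2 fold change -0.70 ± 0.21 SE, limma adjusted p = 0.0328). Mrps18c rose, with 13.2, 17.2 and 19.2 FPKM in the matured libraries and 6.53, 8.11 and 9.19 FPKM in the pre-matured libraries (log2 fold change 0.97 ± 0.23 SE, limma adjusted p = 0.0140). Neither gene overlapped between groups. Mrps18b did not pass, with 18.6, 21.0 and 20.8 FPKM in the matured libraries and 20.5, 21.6 and 24.2 FPKM in the pre-matured libraries (log2 fold change -0.13 ± 0.18 SE, limma adjusted p = 0.630).

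Within a library, where scaling plays no part, the FPKM of mrps18c was 1.39, 1.58 and 1.46 times that of mrps18a in matured libraries and 0.390, 0.441 and 0.441 times in pre-matured libraries. The order of the 2 genes was thus the opposite in the groups, in 6 of 6 libraries. The ratio of mrps18b to mrps18a was 1.97, 1.94 and 1.58 in matured and 1.22, 1.17 and 1.16 in pre-matured libraries, without overlap. Mrps18b is 1603 and mrps18a 765 bases long, so a trend with gene length does not cancel in this ratio. These ratios were looked at after the values were seen and were not tested. The call of mrps18c was lost without matured 3 (limma adjusted p = 0.0579), and that of mrps18a without matured 1, matured 2, pre-matured 2 or pre-matured 3 (limma adjusted p = 0.0622 to 0.120), after rescaling to TPM (0.227) and without the length trend (0.273). Reads shared between near-identical copies could not be checked for any of the paralogs named here.

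**Figure D4:**
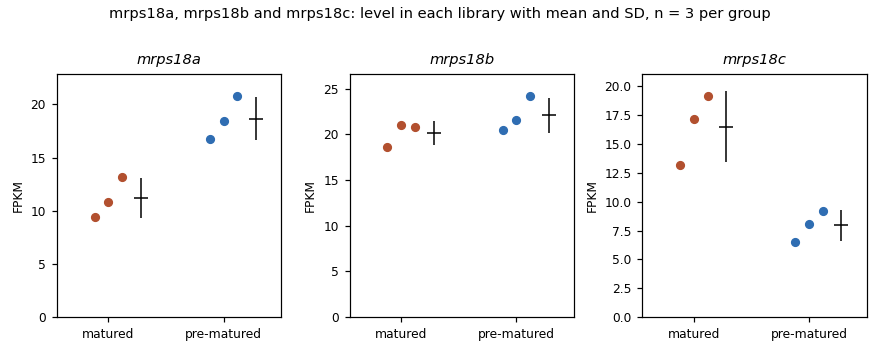
FPKM of mrps18a, mrps18b and mrps18c in each matured (left, rust) and pre-matured (right, blue) library, with mean and SD (n = 3 per group). Mrps18a is lower in every matured library (9.46 to 13.2 against 16.7 to 20.8 FPKM), mrps18c is higher (13.2 to 19.2 against 6.53 to 9.19 FPKM), and mrps18b overlaps.

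Of the 7 genes with tomm symbols, 1 fell and 0 rose, and this lower share of 14.3% is near the 10% of all genes (23.4% of all genes were higher). They are counted as TOM genes by symbol, and 1 of them, tomm34, encodes a cytosolic co-chaperone and not a subunit of the outer membrane complex. At an unadjusted p under 0.05, tomm22 was also the only TOM gene. Tomm22, the central receptor through which most precursors enter, was at 6.10, 6.71 and 6.77 FPKM in matured libraries, with 145, 195 and 163 reads, and at 18.2, 11.9 and 14.6 FPKM in the pre-matured libraries, with 520, 327 and 393 reads. The matured libraries lay close together and all below the pre-matured ones, at 6.52 ± 0.37 FPKM in matured and 14.9 ± 3.18 FPKM in pre-matured pituitaries (SD, n = 3 each; log2 fold change -1.06 ± 0.22 SE, limma adjusted p = 0.00873). The small subunits tomm5 and tomm6 had the highest levels of all members and did not pass. Tomm5 was at 108, 180 and 172 FPKM in the matured libraries and 191, 198 and 221 FPKM in the pre-matured libraries, without overlap, matured 1 being the lowest (log2 fold change -0.44 ± 0.23 SE, limma adjusted p = 0.176). Tomm6 was at 82.7, 72.5 and 67.9 FPKM in the matured libraries and 93.5, 80.5 and 69.5 FPKM in the pre-matured libraries, with overlap (limma adjusted p = 0.666). Tomm40, the gene of the channel itself, stood at 3.85, 2.91 and 3.16 FPKM in the matured libraries and 2.20, 3.50 and 3.18 FPKM in the pre-matured libraries, also with overlap, and was named after its values were seen.

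Of the 11 TIM genes tested, 2 fell and 1 rose (18.2% lower and 9.09% higher, beside 10% and 23.4% of all genes). Timm23a, which encodes the channel subunit of the complex for presequence-carrying proteins, was at 5.04, 1.81 and 3.25 FPKM in the matured libraries and 10.5, 7.44 and 7.08 FPKM in the pre-matured libraries. Matured 2 was the lowest and pre-matured 1 the highest, without overlap (log2 fold change -1.15 ± 0.32 SE, limma adjusted p = 0.0259). Timm29, a subunit of the human TIM22 complex for carrier proteins, was at 1.96, 2.25 and 2.44 FPKM in the matured libraries and 6.11, 5.14 and 3.94 FPKM in the pre-matured libraries, with 50 to 70 reads in matured ones (log2 fold change -0.90 ± 0.25 SE, limma adjusted p = 0.0252). Its groups did not overlap. The call of timm23a was lost without matured 2, matured 3 or pre-matured 1 (limma adjusted p = 0.0770, 0.0648 and 0.0767), and that of timm29 without any library except pre-matured 3 (limma adjusted p = 0.0559 to 0.0896).

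The small TIM proteins are chaperones that carry hydrophobic precursors across the space between the membranes, and of their 5 genes 1 rose and 0 fell (limma; 1 of each at an unadjusted p under 0.05). The higher share of 20% is near the 23.4% of all genes, and the lower share of 0% stands beside 10%. Timm13 rose, with 12.04, 15.3 and 17.9 FPKM in the matured libraries and 9.62, 6.47 and 9.60 FPKM in the pre-matured libraries (log2 fold change 0.75 ± 0.24 SE, limma adjusted p = 0.0429). The groups did not overlap, but the call was lost without any 1 of the 6 libraries (limma adjusted p = 0.0529 to 0.145). Timm8b, of the family with which the timm13 protein forms a complex, did not pass, with 18.5, 23.2 and 21.6 FPKM in the matured libraries and 28.1, 19.2 and 26.2 FPKM in the pre-matured libraries (limma adjusted p = 0.516). The ratio of timm13 to timm8b within a library was 0.651, 0.662 and 0.827 in matured and 0.342, 0.337 and 0.367 in pre-matured libraries, without overlap and without a test, having been looked at after the values were seen. Timm13 is 1305 and timm8b 829 bases long, so a trend with gene length does not cancel here.

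Timm9 and timm10, whose proteins form the other small TIM complex, had matured values below every pre-matured one but did not pass. Timm9 was at 14.9, 16.2 and 16.2 FPKM in the matured libraries and 22.7, 16.7 and 28.1 FPKM in the pre-matured libraries (log2 fold change -0.46 ± 0.23 SE, limma adjusted p = 0.152). Timm10 was at 2.99, 3.93 and 3.90 FPKM in the matured libraries and 7.99, 6.43 and 4.72 FPKM in the pre-matured libraries (log2 fold change -0.66 ± 0.26 SE, limma adjusted p = 0.0782). Timm10b was at 2.29, 3.2 and 0.995 FPKM in the matured libraries and 5.46, 2.27 and 5.47 FPKM in the pre-matured libraries, with overlap (limma adjusted p = 0.156). Of the paralogs timm17a and timm17b, partners of the TIM23 channel, timm17a was at 12.1, 13.4 and 12.9 FPKM in the matured libraries and 18.2, 17.9 and 16.5 FPKM in the pre-matured libraries, without overlap (log2 fold change -0.43 ± 0.18 SE, limma adjusted p = 0.104). Timm17b was at 3.41, 2.65 and 2.78 FPKM in the matured libraries and 2.59, 2.94 and 2.34 FPKM in the pre-matured libraries, with overlap (log2 fold change 0.12 ± 0.24 SE, limma adjusted p = 0.726). The ratio of timm17a to timm17b was 3.54, 5.06 and 4.63 in matured and 7.02, 6.09 and 7.07 in pre-matured libraries, so timm17a was the more abundant paralog in all 6.

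**Figure D5:**
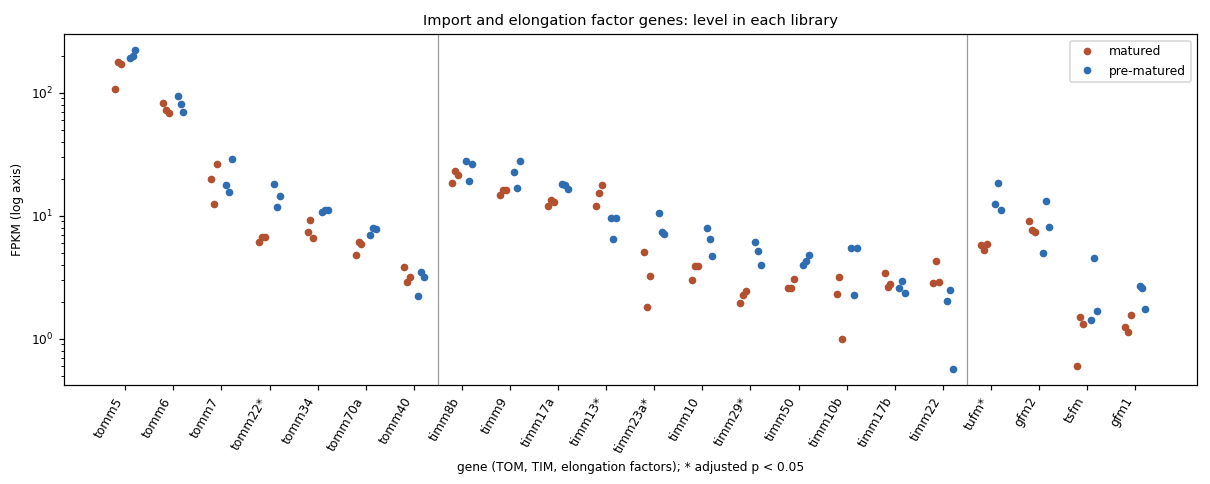
FPKM (log axis) of the 18 tested import genes and 4 elongation factor genes in each matured (left of each tick, rust) and pre-matured (right, blue) library, ordered by mean level within TOM, TIM and elongation factors; timm21 is left out because 5 of its values are 0. Stars mark the 5 called genes, of which tomm22, timm23a, timm29 and tufm are lower and timm13 is higher in matured pituitaries.

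Mitochondrial ribosomal protein genes were expressed far below those of the cytosolic ribosome. Over 75 mitochondrial genes the median level was 8.28, 9.80 and 9.65 FPKM in the matured libraries and 10.6, 10.4 and 11.7 FPKM in the pre-matured libraries, while over 61 cytosolic genes it was 1074, 941 and 1160 FPKM in the matured libraries and 2874, 2261 and 2222 FPKM in the pre-matured libraries. The cytosolic median was 130, 95.97 and 120 times the mitochondrial one in matured libraries and 271, 217 and 190 times in pre-matured libraries, without overlap. A factor applied to a whole library cancels in this ratio, but a trend with gene length does not. Median length was 584 bases over the cytosolic and 1174 bases over the mitochondrial genes. The length trend was not removed from this ratio or from the cytosolic calls that follow. Of the 61 cytosolic genes 51 fell and 0 rose (83.6% lower), against 15 lower and 6 higher of the 75 mitochondrial ones (20.0% and 8%), and this difference was not tested. Of all genes tested, 10% were lower and 23.4% higher. At an unadjusted p under 0.05, the cytosolic list also had 0 higher genes.

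Other genes of the same pathways moved in both directions, in small numbers. Of 5 ribosomal proteins with other symbols, 1 fell: dap3, a small subunit protein gene (4.93 ± 1.42 FPKM in matured and 9.37 ± 1.07 FPKM in pre-matured pituitaries, SD, n = 3 each; log2 fold change -0.83, limma adjusted p = 0.0333). At an unadjusted p under 0.05 that list had 0 higher genes as well. Of 20 ribosome assembly genes 1 rose, malsu1, whose product binds the large subunit (0.94, limma adjusted p = 0.0320), and 1 fell, the helicase gene dhx30 (-0.76, limma adjusted p = 0.0446). Of 20 other genes of mitochondrial RNA and translation, ptcd1 rose (0.76) and mtif2, the initiation factor gene, fell (-1.35; limma adjusted p = 0.0310 and 0.0254). Of 17 mitochondrial aminoacyl-tRNA synthetase genes 2 fell and 0 rose, with 4 lower and 0 higher at an unadjusted p under 0.05. Those that fell were pars2 (2.22 ± 0.683 FPKM in matured and 6.61 ± 1.31 FPKM in pre-matured pituitaries) and vars2 (4.57 ± 0.345 FPKM in matured and 9.85 ± 1.21 FPKM in pre-matured pituitaries, SD, n = 3 each; limma adjusted p = 0.00945 and 0.0110). These 4 lists had 5% to 20% of genes lower and 0% to 5% higher, beside 10% and 23.4% of all genes.

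Of 22 genes listed with import under other symbols, 3 fell and 2 rose. That is 13.6% lower, near the 10% of all genes, and 9.09% higher, beside 23.4%. The list also holds the chaperone and co-chaperone genes hspd1, trap1 and hscb. Mtx3, a metaxin gene of the outer membrane, rose to 5.22, 5.49 and 5.72 FPKM in the matured libraries, against 0.697, 0.829 and 1.29 FPKM in the pre-matured ones (log2 fold change 1.75, limma adjusted p = 0.00218). Mtx2, the other metaxin gene measured, went the other way and was named after its values were seen. It was at 20.5, 20.2 and 20.5 FPKM in the matured libraries and 45.3, 38.8 and 48.8 FPKM in the pre-matured libraries (log2 fold change -1.08, limma adjusted p = 0.0038). Grpel2, a nucleotide exchange factor gene of the import motor, was at 5.45, 4.97 and 7.30 FPKM in the matured libraries and 22.8, 36.8 and 17.6 FPKM in the pre-matured libraries (log2 fold change -1.90, limma adjusted p = 0.00279). Besides mtx3, the gene of this list that rose was hscb (log2 fold change 1.09, limma adjusted p = 0.0236), named after its values were seen. Of 9 genes of mitochondrial DNA expression 0 passed limma, beside 10% lower and 23.4% higher of all genes. Also 0 of the 9 had an unadjusted p under 0.05. Among 6 regulators of mitochondrial biogenesis tested, pprc1 fell (3.23 ± 0.346 FPKM in matured and 8.64 ± 2.72 FPKM in pre-matured pituitaries; log2 fold change -1.15, limma adjusted p = 0.0131). This 1 gene is 16.7% of the regulators lower, with 0% higher, beside 10% and 23.4% of all genes. Of 20 abundant mitochondrial proteins listed as markers of content, 8 fell and 1 rose, among them immt, a cristae organiser gene (43.5 ± 4.47 FPKM in matured and 91.8 ± 1.61 FPKM in pre-matured pituitaries), and pdha1a, of pyruvate dehydrogenase (26.2 ± 1.42 FPKM in matured and 56.8 ± 3.57 FPKM in pre-matured pituitaries, SD, n = 3 each; limma adjusted p = 0.00348 and 0.00316). That is 40.0% lower and 5% higher, beside 19.6% and 7.22% of the members and 10% and 23.4% of all genes. Counts of these further lists and of the cytosolic ribosomal genes are given for FPKM as deposited only. The balance of the members themselves turned round with TPM.

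Called and uncalled members overlapped in length and level. Gene length had a median of 1305 bases in the 7 higher, 1288 bases in the 19 lower and 1238 bases in the 71 other tested members, and median levels were 11.8, 9.84 and 9.13 FPKM. Across the 97 tested members the log2 fold change had a Pearson correlation of 0.02 with log2 length and -0.05 with log2 mean level, against 0.14 and -0.13 across all 17887 genes, as a description over genes that share the same 6 libraries. Of the 71 members that did not pass, 46 had a negative log2 fold change with FPKM as deposited. Among these 71, 19 lower and 5 higher ones had groups that did not overlap. Of all 17887 genes tested, 6944 had a negative log2 fold change, and 15.9% were lower and 33.3% higher without overlap. These all-gene values include called genes and are not those of uncalled genes. Some of the negative signs turned positive under other scalings, such as those of gfm2, tomm6 and mrps18b with TPM.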

How the data were processed

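Per the labels' protocols, RNA came from a TRIzol extraction, and the library kit was NEBNext Ultra II. The submitters' processing notes name CASAVA 1.8. Aligner, counter and build: not given in the sources used here. Values deposited by the authors, 1 per gene in each of the 6 libraries, were read as FPKM from their pattern; FPKM and RPKM cannot be told apart. Whole reads, gene lengths and depths that fit the values (relative tolerance 1e-10) were found for 27501 genes above 0 and for 0 of 2000 scrambled genes. Of the 27501 genes, 25782 were above 0 in at least 2 libraries. For a gene above 0 in only 1 library, the values fix only the ratio of reads to length. Intervals from reads would cover counting error only.

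Groups follow the labels' age field, and replicate numbers, given in accession order, do not pair libraries. A gene entered the test if 3 or more libraries reached 1 FPKM. The test was limma 3.58.1 (trend and robust, R 4.3.3) on log2(FPKM + 1), adjusted over 17887 genes. Fold changes on this scale understate those of weakly expressed genes. The fit and the rebuilding were tested on simulated data. Members and lists were chosen with earlier results of these data known. Named with values per library are all elongation factors, per other role up to 4 called genes of each direction by p and the 2 highest in level, and paralogs. Of each further list up to 2 called genes by p are named, most of them with means or fold changes only. Mrpl41, mrpl28, mrps36, tomm40, mtx2 and hscb lie outside these rules. Alternatives were other scalings, filters, pseudocount and thresholds, a length trend, voom on rebuilt reads and left-out libraries; voom with median-ratio library sizes and the split of ribosomal genes by bacterial counterpart were added after seeing the data. Plots used Python 3.11.15 and matplotlib 3.10.9.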

Additional observations from a re-analysis of the deposited data

How the results depend on the processing

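No paired analysis was possible because the labels give no shared replicate numbers. The counts of lower and higher members, 19 and 7 of 97, became 4 and 10 with TPM, 6 and 12 when library totals left out genes above 1%, 37 and 3 after quantile normalization, 34 and 2 under median-ratio scaling, 9 and 3 by voom (rebuilt reads), 25 and 0 by voom with median-ratio library sizes, an alternative chosen after seeing the data, 10 and 11 without the length trend, 13 and 3 with no filter, 4 and 0 at an adjusted p under 0.01, and 9 and 1 with a fold of at least 2. Without 1 library they ranged from 9 to 15 lower and from 1 to 8 higher. The median log2 fold change of the members, -0.25, became 0.0563 with TPM, 0.0556 when totals left out genes above 1%, -0.41 after quantile normalization, -0.48 under median-ratio scaling, -0.53 by voom with median-ratio library sizes and -0.0284 without the length trend. A pseudocount of 0.1 and a filter of a mean FPKM of at least 5 left counts within 1.5 times. The cause of these shifts was not tested. Fewer libraries leave fewer degrees of freedom, and the reads of weak members, down to 14 in a library, limit what can be seen. With 3 libraries a group, a member that missed the threshold is not shown to be unchanged.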
